A study of Mus musculus with 15 samples.

Results

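This report describes Bmp6 and 9 further genes of BMP-SMAD signalling (Bmp4, Bmpr1a, Bmpr2, Smad1, Smad6, Smad7, Id1, Id2 and Id3) in CT26 cells, a mouse colon carcinoma cell line. The 10 genes were found by symbol among the 34432 genes listed in each of the 2 deposited tables, and all 10 were listed in both. They were chosen from the same measured values that are described here. Bmp6 was selected on its own change under treatment, and the values behind the choice of the other 9 are not known. Each member's difference between treated and control cells is therefore given as a description, with no p-value. Members called by limma are counted further on, also as a description, and nothing is read from those calls. The other genes of the pathway, 67 in number, were tested.

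The knockdown experiment compared 3 shControl libraries, from CT26 cells carrying a control hairpin, with 3 shPrmt1 libraries, from cells carrying a hairpin against Prmt1, which encodes the main type I protein arginine methyltransferase. According to the methods, the Prmt1 hairpin was induced by doxycycline (DOX) for 3 days, and whether the shControl cells were given DOX is not stated in the sources used here. The inhibitor experiment held 3 libraries each of CT26 cells, labelled WT, given vehicle, MS023 or GSK3368715, both small-molecule inhibitors of type I arginine methyltransferases, at 6 µM for 48 h. The 15 libraries are of 1 cell line grown in culture, and each experiment was normalized separately, so levels are compared within an experiment only. Between 17284091 and 29233738 reads per library fell on genes in the knockdown experiment and between 40119305 and 93697833 in the inhibitor experiment. Prmt1 stood at 5601, 5717 and 5620 normalized counts with the control hairpin and at 669, 761 and 683 with its own, so that the shPrmt1 mean was 12.5% of the shControl mean. Of 8 epithelial markers, Epcam was at 0 in every library and Cdh1 did not pass 2.29 normalized counts, while over both experiments Krt18 ran from 378 to 1414 and Vim, a mesenchymal marker, from 58943 to 207698. Krt20 ran from 153 to 447, and Krt8, Krt19, Vil1 and Cdx2 did not pass 26.2. Of the mesenchymal markers, Thy1 was at 0 in every library and Acta2 did not pass 1.65. The 6 leukocyte markers summed to between 1.02 and 28.1 normalized counts per library, and the 5 endothelial markers to between 11.2 and 67.5, with Ptprc, the pan-leukocyte marker, at 6.11 or less. Several of these markers moved with the groups. Krt18 was 0.41 lower in shPrmt1 cells, 0.55 higher with MS023 and 0.27 higher with GSK3368715 (log2 differences called by limma), and Krt8 was 1.83 higher with MS023. Of the 6 mesenchymal markers, Pdgfrb was called higher in all 3 comparisons (0.69, 0.40 and 0.64), Col1a1 was 0.97 higher in shPrmt1 cells and 0.52 lower (-0.52) with MS023, and Col1a2 was 0.22 lower (-0.22) with MS023. The summed mesenchymal markers ran from 101414 to 106866 per library in shControl and from 89489 to 108240 in shPrmt1 cells, and from 329526 to 345345 with vehicle, 303900 to 333784 with MS023 and 319746 to 347029 with GSK3368715. The part of these markers in the results was not tested.

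Bone morphogenetic proteins (BMPs) are secreted ligands of the TGF-beta superfamily. A BMP dimer brings together type I receptors such as BMPR1A and type II receptors such as BMPR2 on the cell surface, the activated type I receptor phosphorylates SMAD1, SMAD5 and SMAD9, and these enter the nucleus with SMAD4. Id1, Id2 and Id3, which encode inhibitors of basic helix-loop-helix transcription factors, and Smad6 and Smad7, whose products feed back on the receptors, are classical target genes. BMP6 is best known as the ligand that the endothelium of the liver makes when iron is plentiful and that raises hepcidin in hepatocytes, and in the intestine BMP signalling restrains the stem cells of the crypt.

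SMAD complexes bind short DNA motifs, and the stretches before the members' start sites with a match to 1 of a pair of them are shown here, ahead of the genes' levels. The motifs searched were GGCGCC, a GC-rich element bound by SMAD1 and SMAD5, which reads the same on either strand, and GTCTG, the SMAD4 element, which reads CAGAC on the other strand. No member's window held both motifs. The windows were the 250 bases before the RefSeq start of a gene (GRCm38.p6, the assembly called mm10), available for 8 of the 10 members. Id1 had no entry and the window of Smad7 was not used here. Of the 8 windows 3 held GGCGCC, against 9.59% of all 32851 windows, and 2 held GTCTG or CAGAC, against 42.2%. The 8 windows were 62.8% to 78.8% G or C, and the windows they are set against were not matched for this, so no enrichment is read from these shares. Each match is printed on the gene's own strand with 10 bases on either side and the match in capitals.
Bmp6, chr13:38345587-38345611, plus strand: cgcacgtgtgCAGACtgcgagtgac
Bmpr1a, chr14:34502729-34502754, minus strand: cgcgcgcgccGGCGCCtcttgctcgc
Bmpr2, chr1:59764164-59764189, plus strand: ccggcggccgGGCGCCgctgcctgcc
Id2, chr12:25096308-25096333, minus strand: aggccccctgGGCGCCcagcgcacac
Id3, chr4:136143645-136143669, plus strand: tcctcggcgtCAGACcagcctaagg
Id3, chr4:136143744-136143768, plus strand: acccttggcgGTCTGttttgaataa
The windows of Bmp4, Smad1 and Smad6 held neither motif. A match describes the letters in the window and was not tested as a binding site. In the GENCODE annotation of mm10 the windows of Bmp6, Bmpr2 and Id3 lay wholly within exons, since longer transcripts begin upstream of the RefSeq start. Those of Bmpr1a, Id2 and Smad1 lay partly within exons, by 141, 161 and 90 of the 250 bases.

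Bmp6 (ENSMUSG00000039004, chr13:38345107-38500302 of mm10, plus strand) was the member with the largest difference in all 3 comparisons, at a low level throughout. In the knockdown experiment its normalized counts were 5.28, 6.48 and 5.53 with shControl and 28.6, 33.9 and 37.8 with shPrmt1. Every shPrmt1 library lay well above every shControl library. The means of 5.76 ± 0.63 and 33.4 ± 4.62 (SD, n = 3 each) stood in a ratio of 5.80, and the difference on the scale of log2(normalized count + 1) was 2.34 ± 0.29 (SE). These values rest on few reads, 20 over the 3 shControl libraries and 90 over the 3 shPrmt1 libraries, and the gene passed the filter on low values only through the shPrmt1 libraries. Because RNA was taken from whole cultures, a change in the share of cells that express a gene and a change in its RNA per cell cannot be told apart.

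With the inhibitors, Bmp6 had 28.1, 12.4 and 21.7 normalized counts in the vehicle libraries. It had 85.6, 82.0 and 92.0 with MS023, and 54.1, 60.2 and 98.2 with GSK3368715. The treated libraries did not overlap with the vehicle libraries under either compound, while the 3 GSK3368715 libraries spread around those of MS023. The ratio of means was 4.17 for MS023 and 3.42 for GSK3368715, and the log2 differences were 2.08 ± 0.31 and 1.75 ± 0.31 (SE). The reads behind these values numbered 56 with vehicle, 307 with MS023 and 193 with GSK3368715. Bmp6 shares 224 bases of exon with Txndc5, a protein disulfide isomerase gene on the opposite strand with 5940 to 19191 normalized counts, and whether the reads were assigned by strand is not given in the sources used here. Txndc5 differed by -0.12, -0.09 and -0.04 (log2) in the 3 comparisons, none past the threshold (adjusted p = 0.164, 0.159 and 0.670, limma).

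**Figure D1:**
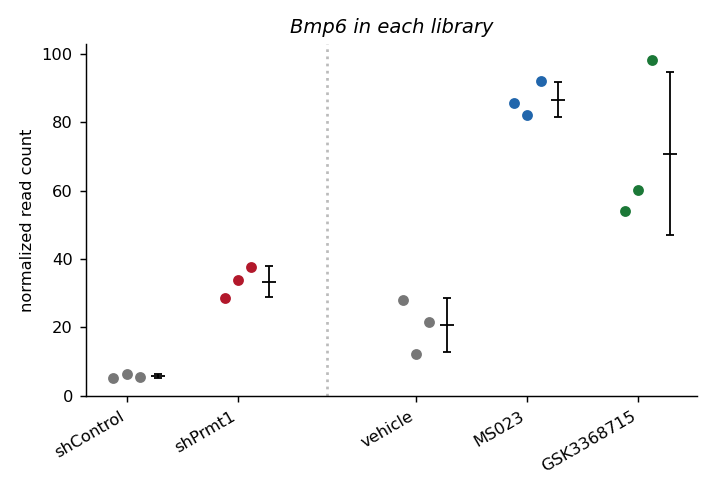
Normalized read counts of Bmp6 in each library, as points, with the mean and SD of each group of 3 beside them. The dotted line parts the experiments, which were normalized separately. The shPrmt1 points lie between 28.6 and 37.8 and the shControl points between 5.28 and 6.48, and both inhibitors' points lie above the highest vehicle point of 28.1.

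Bmp4, the other ligand among the members (ENSMUSG00000021835, chr14:46383520-46390669, minus strand), was at 0 in 13 of the 15 libraries. A single read was found in 1 MS023 library and in 1 GSK3368715 library, and the gene was not tested. Of the 11 further BMP and GDF ligands listed, only Bmp2 passed the filter in either experiment. Bmp2, a ligand that acts through the same receptors, had 96.5, 134 and 123 normalized counts with vehicle and 70.0, 87.5 and 78.5 with MS023. It fell by 0.57 ± 0.17 (log2, SE; adjusted p = 0.0322, limma), with no overlap between the groups, and was called in 13 of 19 alternatives. The call was lost without vehicle replicate 2 or 3 or MS023 replicate 1 or 3 (adjusted p up to 0.107). The values were 79.3, 95.6 and 98.2 with GSK3368715 (-0.36, adjusted p = 0.218), and 30.8, 42.5 and 32.1 in shControl against 22.9, 26.7 and 13.3 in shPrmt1 libraries (-0.76, adjusted p = 0.133, limma). Bmp6 and Bmp2 were the BMP ligands measured above the filter, and their fitted differences had opposite signs in each of the 3 comparisons.

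Bmpr1a (ENSMUSG00000021796, chr14:34410734-34503341), the main type I receptor for BMP2 and BMP4, had means of 2440 ± 110 and 2777 ± 399 normalized counts in shControl and shPrmt1 cells (SD, n = 3 each). Its log2 differences were 0.18 ± 0.10, 0.13 ± 0.06 and 0.07 ± 0.06 (SE) for shPrmt1, MS023 and GSK3368715. Bmpr2 (ENSMUSG00000067336, chr1:59763400-59879014), the type II receptor, varied more among the vehicle libraries, at 5858, 10974 and 8947, than between groups. Its differences were 0.13 ± 0.12, -0.11 ± 0.18 and 0.04 ± 0.18. For both receptors the groups overlapped in every comparison.

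Of the 10 further receptors and co-receptors 7 were tested in each experiment. Rgmb, a membrane-anchored BMP co-receptor, rose in shPrmt1 cells from 501, 492 and 465 normalized counts to 718, 737 and 731. The difference was 0.58 ± 0.07 (log2, SE; adjusted p = 0.00184, limma), and the libraries of the 2 groups did not overlap. Acvr1, a type I receptor through which BMP6 signals, fell by 0.18 ± 0.06 with MS023 (adjusted p = 0.0383, limma), a call that held in 10 of 19 alternatives and was lost without any 1 vehicle library or without MS023 replicate 1 or 3 (adjusted p up to 0.12) and with each library rescaled to the same upper quartile (adjusted p = 0.176). No receptor on this list passed the threshold with GSK3368715.

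Smad1 (ENSMUSG00000031681, chr8:79338395-79399518, minus strand), the signal transducer, had 442, 437 and 417 normalized counts with shControl and 509, 463 and 459 with shPrmt1, where the groups did not overlap although the difference was small (0.14 ± 0.08, SE). With the inhibitors its differences were -0.06 ± 0.06 and -0.07 ± 0.06 (log2, SE), and the groups overlapped. Its partners Smad5 and Smad4 were not called in any comparison, with log2 differences from -0.03 to 0.14. Smad9 did not exceed 2.2 normalized counts in any library.

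Smad6 and Smad7 encode the inhibitory SMADs. Smad7 (ENSMUSG00000025880, chr18:75367529-75395935), which blocks receptors of the BMP and TGF-beta branches alike, had 716, 670 and 731 normalized counts with shControl. It had 973, 898 and 988 with shPrmt1, all above the control range, with a difference of 0.43 ± 0.08 (log2, SE). With the inhibitors it overlapped with vehicle, at -0.13 ± 0.08 for MS023 and -0.12 ± 0.08 for GSK3368715. Smad6 (ENSMUSG00000036867, chr9:63953076-64022059), which acts mainly on the BMP branch, had 114, 128 and 112 normalized counts with vehicle and 164, 155 and 185 with MS023. With GSK3368715 it had 147, 133 and 189, again above every vehicle library. The log2 differences were 0.51 ± 0.15 and 0.39 ± 0.15 (SE). In the knockdown experiment Smad6 spread widely within each group, from 16.7 to 45.3 in shControl and from 13.3 to 51.0 in shPrmt1 libraries, with a difference of 0.18 ± 0.53.

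For each of the 3 Id genes every shPrmt1 and every MS023 library lay above all of its controls, and with GSK3368715 Id3 alone showed this. Id1 (ENSMUSG00000042745, chr2:152736251-152737410) had 701, 711 and 742 normalized counts with shControl and 1216, 970 and 1188 with shPrmt1. With vehicle it had 1135, 1445 and 1129, with MS023 2187, 1906 and 2067, and with GSK3368715 1768, 1362 and 1718. Of the GSK3368715 libraries 1 lay below the highest vehicle library. The log2 differences were 0.64 ± 0.10, 0.74 ± 0.12 and 0.39 ± 0.12 (SE) for shPrmt1, MS023 and GSK3368715.

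Id2 (ENSMUSG00000020644, chr12:25093799-25097140) had 1005, 1098 and 1057 normalized counts in shControl and 1642, 1668 and 1546 in shPrmt1 libraries. With vehicle it had 1159, 1785 and 1330, with MS023 2234, 1967 and 2041, and with GSK3368715 1739, 1482 and 1655. The 3 GSK3368715 libraries lay within the range of vehicle. The log2 differences were 0.62 ± 0.07, 0.57 ± 0.13 and 0.21 ± 0.13 (SE).

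Id3 (ENSMUSG00000007872, chr4:136143497-136145755), whose window holds the CAGAC and GTCTG matches printed above, had 570, 559 and 636 normalized counts in shControl and 1045, 762.4 and 916 in shPrmt1 libraries. With vehicle it had 890, 1108 and 913, with MS023 1956, 1582 and 1753, and with GSK3368715 1424, 1189 and 1295. It was the Id gene whose groups did not overlap in any of the 3 comparisons with controls. The log2 differences were 0.62 ± 0.12, 0.86 ± 0.11 and 0.43 ± 0.11 (SE). Vehicle replicate 2, the vehicle library with the lowest Bmp6 value, held the highest vehicle value of Id1, Id2 and Id3.

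**Figure D2:**
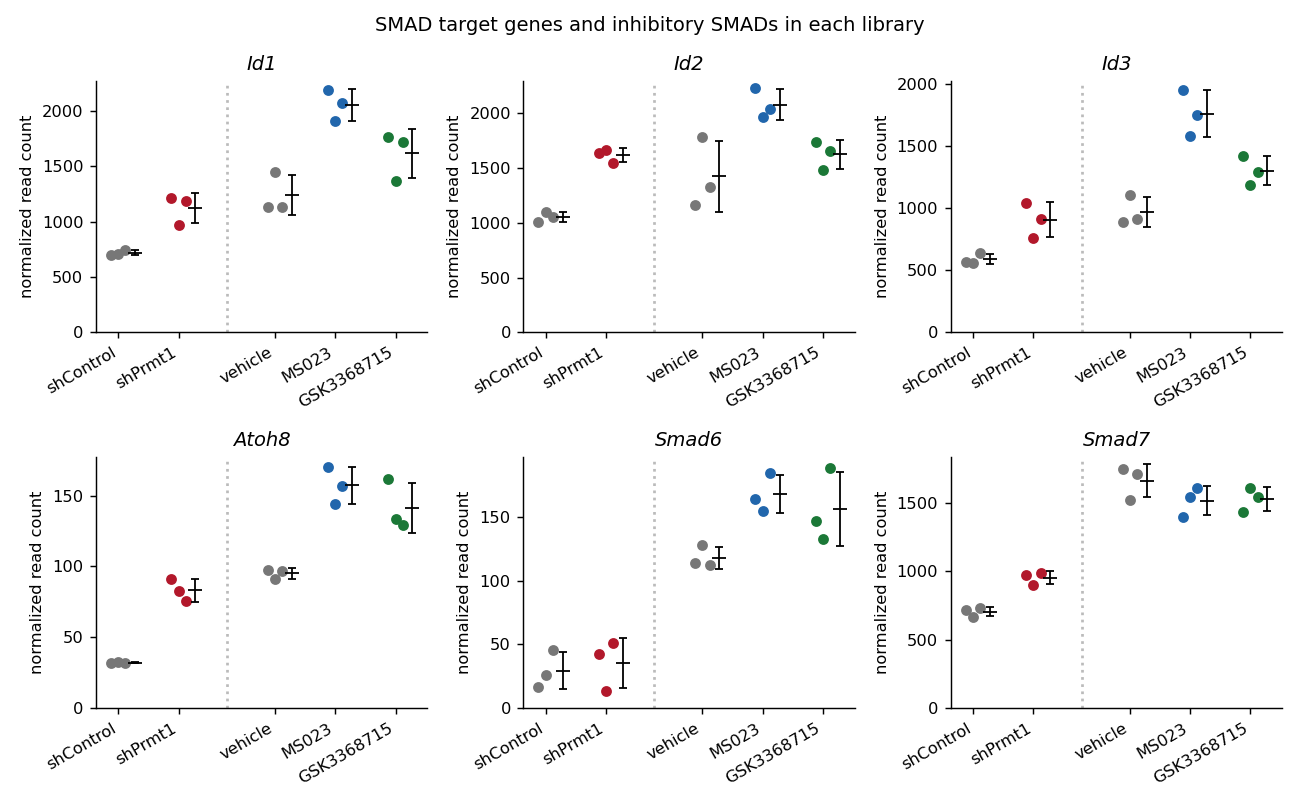
Normalized read counts of Id1, Id2, Id3, Atoh8, Smad6 and Smad7 in each library, as points, with the mean and SD of each group of 3 beside them. The dotted line parts the experiments, which were normalized separately. The shPrmt1 and MS023 points of the Id genes and Atoh8 lie above all of their controls, and Smad7 is above its controls in shPrmt1 cells only among these groups.

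Of the 9 members tested, 5 were called higher in shPrmt1 cells (Bmp6, Smad7, Id1, Id2 and Id3) and none lower, where 7.5% of the 11485 genes tested were called higher and 7.17% lower. With MS023 5 were called higher (Bmp6, Smad6, Id1, Id2 and Id3), where 13.7% of 13014 genes were called higher and 14.1% lower. With GSK3368715 2 were called higher (Bmp6 and Id3), where 5.16% of genes were called higher and 4.47% lower. The groups did not overlap, with treated cells higher, for 6, 5 and 3 members in the same order, against 19.2%, 22.4% and 13.7% of all genes tested. The members were selected on such values, and Bmp6 passed the filter in the knockdown only through its shPrmt1 libraries. These calls therefore give no support, and nothing is read from these counts. The comparisons of MS023 and GSK3368715 share the 3 vehicle libraries. With GSK3368715 the count of members called ran from 1 to 4 when 1 library was left out, with 4 called without vehicle replicate 2.

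**Figure D3:**
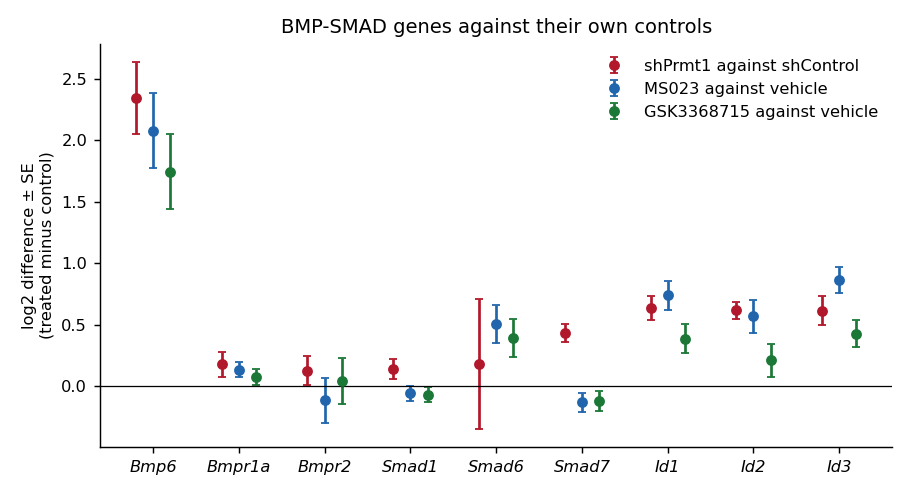
Treated minus control differences of log2(normalized count + 1), bars showing the SE, for the 9 members that passed the filter on low values (3 libraries a group). Bmp6 stands highest, at 2.34, 2.08 and 1.75, the Id genes lie between 0.21 and 0.86, and Bmpr1a, Bmpr2 and Smad1 lie within 0.18 of 0.

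Per kilobase of exon, the members kept far apart in level in control cells. In shControl cells Id1 stood highest at 619 ± 18.4 normalized counts per kb (SD, n = 3), followed by Id2 at 432 ± 19.0, Bmpr1a at 384 ± 17.3 and Id3 at 328 ± 23.1. Smad7 at 156 ± 7.06 and Bmpr2 at 153 ± 6.85 did not differ beyond their spread. Below them came Smad1 at 69.0 ± 2.13, Smad6 at 9.15 ± 4.56, Bmp6 at 1.48 ± 0.16 and Bmp4 at 0. In vehicle cells the same genes stood at the bottom, Smad6 at 36.8 ± 2.72 and Bmp6 at 5.32 ± 2.03 per kb, and at the top Bmpr1a (1077 ± 89.0) and Id1 (1066 ± 156) did not differ beyond their spread. Id2, Id3 and Bmpr2 followed at 584 ± 133, 542 ± 66.8 and 478 ± 143 and were likewise not apart.

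Atoh8, a basic helix-loop-helix factor gene and a direct SMAD target, was the pathway gene outside the members that was called in all 3 comparisons with controls, though with GSK3368715 in 13 of 19 alternatives only. It had 31.7, 32.4 and 32.1 normalized counts in shControl and 91.5, 82.4 and 75.5 in shPrmt1 libraries. With vehicle it had 97.8, 90.8 and 96.5, with MS023 171, 144 and 157, and with GSK3368715 162, 133 and 129. Every treated library lay above every control library. Atoh8 (ENSMUSG00000037621, chr6:72206177-72235577, minus strand) rose by 1.34 ± 0.17, 0.72 ± 0.14 and 0.56 ± 0.14 (log2, SE; adjusted p = 0.00169, 0.00341 and 0.0280, limma). With GSK3368715 the call was lost without vehicle replicate 2 or 3 or GSK3368715 replicate 1 or 2, with no filter and with only the groups compared in the fit (adjusted p up to 0.094). Among the 12 targets on the list, Atoh8 included, 4 were tested in the knockdown and 5 with the inhibitors. Msx1, a homeobox target gene, fell with MS023 from 626, 631 and 603 to 448, 455 and 477 normalized counts, a difference of -0.43 ± 0.08 (adjusted p = 0.00245), so that the 2 target genes called there moved in opposite directions. Hamp, the hepcidin gene, did not exceed 1.02 normalized counts in any library and was not tested.

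Among the 16 secreted antagonists listed, 7 were tested in the knockdown and 9 with the inhibitors. Fst encodes follistatin, which binds activins and, more weakly, BMPs. It had 567, 975 and 769 normalized counts with vehicle, 352, 302 and 295 with MS023, and 452, 479 and 384 with GSK3368715. All 6 treated libraries lay below all vehicle libraries. It fell by 1.25 ± 0.17 with MS023 and by 0.78 ± 0.17 with GSK3368715 (log2, SE; adjusted p = 0.000619 and 0.0189, limma), and its difference in shPrmt1 cells was -0.27 (adjusted p = 0.235). The call with GSK3368715 was lost without vehicle replicate 3 or GSK3368715 replicate 3 (adjusted p = 0.065 and 0.063) and with only the groups compared in the fit. Grem1, encoding gremlin, and Crim1, a transmembrane BMP-binding protein gene, fell with MS023 by smaller amounts, 0.20 each (adjusted p = 0.0329 and 0.0468), and Crim1 shares 123 bases of exon with Fez2 on the opposite strand. These calls held in 11 and 9 of 19 alternatives, and both were lost without vehicle replicate 1 or 3 or MS023 replicate 1 or 3, Grem1 also without MS023 replicate 2 and Crim1 without vehicle replicate 2 or GSK3368715 replicate 3 (adjusted p up to 0.103 for Grem1 and 0.157 for Crim1). Over all 19 alternatives, rescaling included, adjusted p ran up to 0.137 for Grem1 and 0.172 for Crim1. The smallest fall among them was 0.14 (-0.14) for each. Fstl3 fell by 0.31 ± 0.08 with GSK3368715 (adjusted p = 0.0371), but it shares 1157 bases of exon with Prss57 on the opposite strand, so its value is uncertain. It was called in 10 of 19 alternatives and lost without any 1 vehicle library, MS023 replicate 2 or 3, or GSK3368715 replicate 1 or 2 (adjusted p up to 0.110).

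In shPrmt1 cells the antagonists that were called were higher. Fstl1, a follistatin-like glycoprotein gene, rose from 127, 166 and 115 to 264, 244 and 241 normalized counts, by 0.89 ± 0.15 (log2, SE; adjusted p = 0.00640, limma). Bmper, which encodes a BMP-binding endothelial regulator, rose from 337, 322 and 317 to 416, 492 and 439, by 0.46 ± 0.09 (adjusted p = 0.0151), a call lost without any 1 shControl library (adjusted p up to 0.070). Neither was called with an inhibitor. The knockdown and the inhibitor experiments were not compared by a test.

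Of 15 intracellular regulators of the pathway 14 were tested in each experiment. Nedd4l, an E3 ubiquitin ligase gene that acts on SMADs, rose by 0.30 ± 0.08 in shPrmt1 cells (adjusted p = 0.0364, limma), called in 10 of 15 alternatives and lost without any 1 shControl library or shPrmt1 replicate 1 (adjusted p up to 0.121). Pmepa1, a membrane adaptor gene that restrains SMAD signalling, fell by 0.49 ± 0.09 there (adjusted p = 0.0113), a call lost without shControl replicate 1 or 3 (adjusted p = 0.062 and 0.060). Tob1, a gene for an antiproliferative protein that binds SMADs, rose with MS023 from 1501, 1461 and 1489 to 2046, 2189 and 1896 normalized counts, by 0.46 ± 0.07 (adjusted p = 0.00113). Ctdsp2, a SMAD phosphatase gene, rose by 0.30 ± 0.06 with MS023 (adjusted p = 0.00369). Ppm1a, another SMAD phosphatase gene, fell by 0.18 ± 0.05 with MS023 (adjusted p = 0.0224, limma), and it lay outside the rule for named genes and was named after its values were seen. No regulator was called with GSK3368715.

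Over all 67 of these pathway genes, 35 were tested in the knockdown, of which 5 rose and 1 fell. Of 38 tested with the inhibitors, 3 rose and 7 fell with MS023, and 1 rose and 2 fell with GSK3368715. That makes 17.1% called in shPrmt1 cells, 26.3% with MS023 and 7.89% with GSK3368715, next to 14.7%, 27.9% and 9.64% of all genes tested. In this main fit the pathway list was therefore called about as often as genes at large. In shPrmt1 cells some alternatives, given at the end, called a larger share of the list than of all genes. The medians of the log2 difference over the list were 0.11, -0.03 and -0.02, next to 0.00 in each comparison over all genes. Leaving out 1 library moved these counts, to 3 without shControl replicate 1 or 3 and 12 without shPrmt1 replicate 2, to 5 with MS023 without MS023 replicate 3 and 6 without vehicle replicate 1 or 3, and to 0 with GSK3368715 without vehicle replicate 3 and 1 without GSK3368715 replicate 1 or 2.

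**Figure D4:**
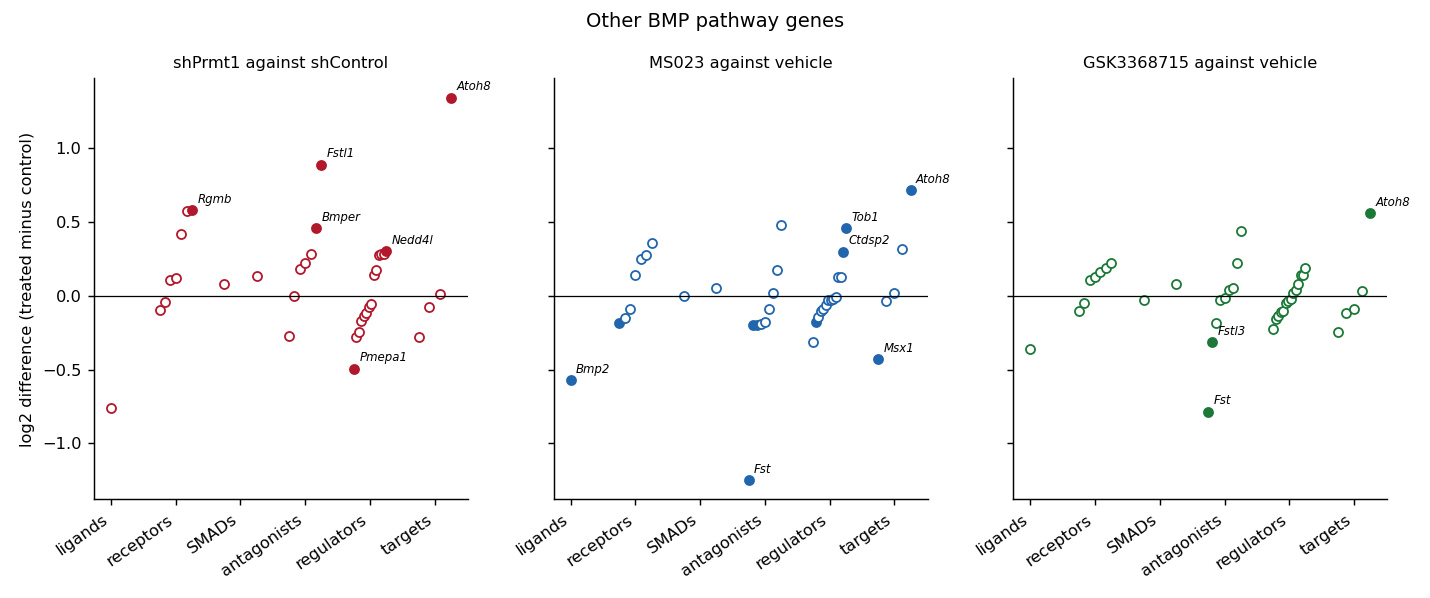
Differences on the scale of log2(normalized count + 1) for the tested pathway genes other than the members, by list, in the 3 comparisons with controls (3 libraries a group). Filled points passed an adjusted p of 0.05 in limma, and those with a difference beyond 0.25 are named. Atoh8 is filled in all 3 panels, at 1.34, 0.72 and 0.56, and Fst in both inhibitor panels, at -1.25 and -0.78.

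The sister branch of TGF-beta and activin and the genes of iron handling were counted for context. Of 16 TGF-beta branch genes, 12 were tested in the knockdown, where Ccn2, a matricellular target gene, rose by 0.77 ± 0.09 and the ligand genes Tgfb1 and Tgfb3 fell by 0.37 and 0.41 (adjusted p = 0.00146, 0.0486 and 0.0265, limma). Of 14 tested with the inhibitors, 2 rose with MS023 and 2 with GSK3368715, Smad3 among them each time (0.17 and 0.26). The other with GSK3368715 was Tgfb3, 0.32 higher (adjusted p = 0.0284, limma), while it was called lower in shPrmt1 cells. The 2 experiments were not compared by a test. Of the 10 iron genes 1 of 7 tested rose in shPrmt1 cells, and 4 of 8 rose with MS023 and 2 with GSK3368715. Beside both lists, 7.5% of all genes tested were called higher and 7.17% lower in shPrmt1 cells. With MS023 13.7% of all genes were called higher, and with GSK3368715 5.16%. The ferritin gene Fth1 rose by 0.54 with MS023 and by 0.31 with GSK3368715 (adjusted p = 0.000136 and 0.00827, limma).

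The 2 inhibitors, given at the same dose for the same time, make 1 pair of compounds. Of the 47 pathway genes tested, members included, none was called between GSK3368715 and MS023 by limma, where 0.315% of all 13014 genes were called higher with GSK3368715 and 0.2% lower. At an unadjusted p under 0.05 in limma there were 7 (the members Id1, Id2 and Id3, and Fst, Crim1, Tob1 and Msx1), next to 1722 of all 13014 genes. edgeR on the recovered reads called 0, next to 69 of all 13014 genes. DESeq2 called 3, next to 377 of all 13014 genes: the member Id3 and Tob1 lower and Crim1 higher with GSK3368715. All 3 Id genes had every GSK3368715 library below every MS023 library, as did 1295 of all 13014 genes. As members, the Id genes were chosen from these same measured values, so their differences here are a description and nothing is read from their p-values. Id3 was 0.44 lower (log2, 95% interval -0.67 to -0.20), Id1 0.35 lower (-0.62 to -0.09) and Id2 0.36 lower (-0.65 to -0.06). For Fst the difference was 0.47 (0.08 to 0.85, adjusted p = 0.283) and for Atoh8 -0.16 (-0.46 to 0.14, adjusted p = 0.674, limma). A difference of a size like that of the Id genes lies within the interval of Atoh8. For Bmp6, given as a description, the difference was -0.33 with an interval from -1.01 to 0.35. Among the members, the intervals of Bmpr1a, Smad1 and Smad7 were the narrowest and lay within 0.21 of 0.

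**Figure D5:**
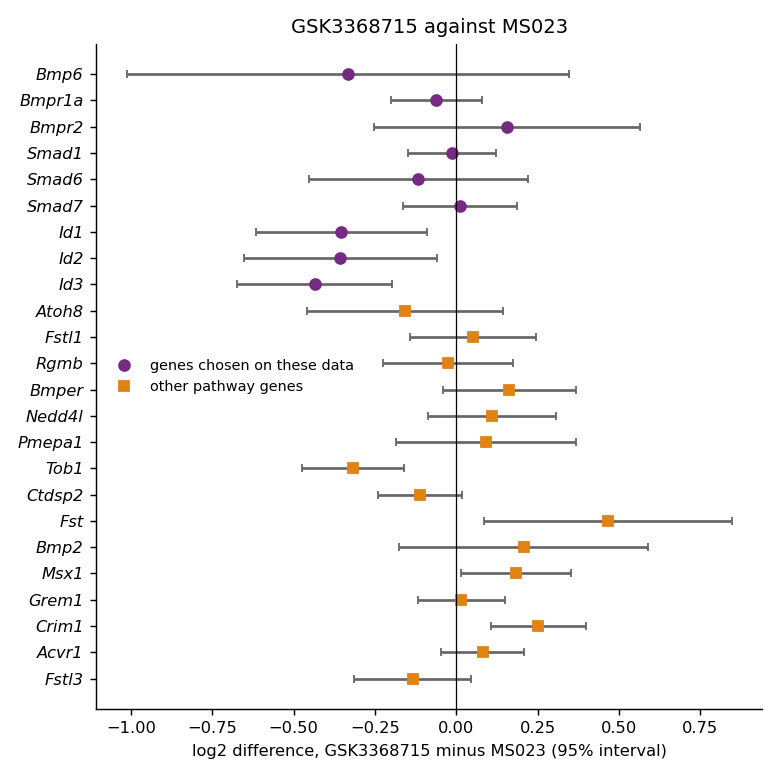
Differences between GSK3368715 and MS023 in log2(normalized count + 1), bars showing 95% intervals, for the 9 members tested (circles) and the pathway genes named above (squares), 3 libraries a group. The intervals of Id1, Id2 and Id3 lie below 0, at -0.35, -0.36 and -0.44, while none passed the threshold after adjustment over all genes. The members were chosen from the same values, so theirs are a description.

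The genes whose pattern over the 15 libraries was most like that of Bmp6, each library taken relative to the mean of its own controls, were Gsdmd, which encodes the pore-forming gasdermin D, Gbp2 and Gbp2b, which encode interferon-inducible guanylate-binding proteins, Parp12, an ADP-ribosyltransferase gene, and Oasl1, an interferon-inducible gene. Pearson's r ran from 0.972 for Gsdmd to 0.956 for Oasl1, among 10174 genes compared. Their log2 differences in shPrmt1 cells ran from 0.54 for Gsdmd to 1.86 for Gbp2. Within the pathway, r with Bmp6 is given for Atoh8 and the tested members only. It was 0.868 for Atoh8, 0.823 for Id1, 0.794 for Id3 and 0.728 for Id2, at ranks 177, 334, 452 and 738. For the remaining members it was 0.50 for Bmpr1a, 0.33 for Smad6, 0.30 for Smad7, 0.12 for Smad1 and -0.04 for Bmpr2. The libraries share their groups and controls, so r largely reflects the group means. Gbp2 and Gbp2b are members of a family of similar genes whose reads may be split between them.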

How the data were processed

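Messenger RNA from 15 CT26 libraries was sequenced as paired-end reads. The authors quantified reads against mm10 with Salmon 1.4.0. The values they deposited are a signal, the count of each gene over its library's DESeq2 size factor, called normalized counts here. Every value was a whole multiple of 1 constant per library, from which 100% of values gave whole reads. The 3 deposited tables of the authors' own comparisons hold fold changes and p-values and were not used.

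A gene entered a test where 3 or more libraries of the fit reached 10 normalized counts. Tests used limma 3.58.1 (R 4.3.3, trend in eBayes) on log2(normalized count + 1), two-sided, with Benjamini-Hochberg adjustment over all genes tested at 0.05. Fold changes of genes with few reads are understated on this scale. The 9 inhibitor libraries entered 1 fit. The series calls the libraries biological replicates, and p-values measure the spread between them. The code was tested on simulated data.

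The members and gene lists were chosen with earlier results of these data known. Named were all members and, per comparison, the other pathway genes with the 6 largest rises and 6 largest falls of those called whose higher group averaged 20 normalized counts or more, Prmt1, and the 5 genes closest to Bmp6 by Pearson's r with a mean of at least 50 in each experiment. Txndc5, Hamp and the genes of the TGF-beta, iron and marker lists were named after their values were seen. Alternatives used edgeR 4.0.16, DESeq2 1.42.0, pseudocounts of 0.5 and 5, no filter or a minimum of 50, rescaling, a replicate block, fits of the compared groups alone and libraries left out. Reads carry no molecular identifiers, so depth covers counting error only.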

Additional observations from a re-analysis of the deposited data

Results flagged for a closer look

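Ftl1, the ferritin light chain gene, differed between the inhibitors: it was 0.52 lower (log2; -0.52) with GSK3368715 than with MS023 (adjusted p = 0.0170, limma), with every GSK3368715 library below every MS023 library. Ftl1 has near-identical pseudogene copies, among them Ftl1-ps1 at 99.6% identity, so its level is uncertain.

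For 5 BMP pathway genes every treated library moved one way in the knockdown and the opposite way with an inhibitor, relative to their own controls. The TGF-beta and iron lists were not searched for this. Such separation was common: in shPrmt1 cells 2202 of 11485 genes lay wholly above their controls and 2167 wholly below. With MS023 the counts were 2916 and 2879 of 13014 genes, and with GSK3368715 1778 and 1833. How many of all genes moved in opposite directions was not counted, and the difference between the experiments was not tested. Bmper was 0.46 higher in shPrmt1 cells and had a log2 difference of -0.19 with MS023, the latter not called (adjusted p = 0.147, limma). Crim1 stood at 0.29 and -0.20 in the same comparisons, with only the MS023 difference called (adjusted p = 0.0519 and 0.0468, limma). Ctdsp2 stood at -0.28 in shPrmt1 cells, 0.30 with MS023 and 0.19 with GSK3368715, with only the MS023 difference called (adjusted p = 0.0549, 0.00369 and 0.0656, limma). Fstl3 stood at 0.18 in shPrmt1 cells, -0.18 with MS023 and -0.31 with GSK3368715, with only the GSK3368715 difference called (adjusted p = 0.184, 0.125 and 0.0371, limma). Smurf2, an E3 ubiquitin ligase gene that acts on SMAD1 and SMAD5, stood at 0.29 in shPrmt1 cells and -0.11 with GSK3368715, neither of them called.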

How the results depend on the processing

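In shPrmt1 cells the number of other pathway genes called was 6, and 10 with each library rescaled to the same total, 11 by DESeq2, and 3 to 12 with 1 library left out. Over all genes 1684 of 11485 were called, and 1748 with that rescaling and 2151 by DESeq2. Without shPrmt1 replicate 2, which gave the 12, it was 2472 of 11368. In each of these alternatives the list, with 35 genes tested in the main fit, was called more often than genes at large. With MS023 the number of other pathway genes called was 10, and 5 to 11 with 1 library left out. With GSK3368715 it was 3, and 6 by DESeq2, 0 with only the groups compared in the fit, and 0 to 3 with 1 library left out. Between the inhibitors, with the members included, it was 0, and 3 by DESeq2 (next to 377 of all 13014 genes), and 0 with any library left out. Members called, counted as a description only, numbered 5 in shPrmt1 cells (4 to 5 with 1 library left out), 5 with MS023 (4 to 6) and 2 with GSK3368715 (1 to 4). For GSK3368715 the count was 1 after rescaling to the same upper quartile and with only the groups compared in the fit. The log2 difference of Bmp6, a description, was 1.83 to 2.53 over 11 alternatives in the knockdown, and 1.77 to 2.33 with MS023 and 1.43 to 1.99 with GSK3368715 over 19 each. In the knockdown Bmp6 fell below the filter at a minimum of 50 and when any shPrmt1 library was left out. No called difference changed sign. The causes of these changes were not tested.

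The labels give libraries of different groups the same replicate numbers and nothing more. In the knockdown the deviations of same-numbered libraries correlated at 0.061 to 0.116 over 3 pairs and those of other pairs at -0.09 to 0.033, so that every library correlated best with its own number, a hint from the data and not the design. With the inhibitors the ranges were -0.10 to 0.113 and -0.13 to 0.173. With the replicate block, 13 other pathway genes were called in shPrmt1 cells and 1 member with GSK3368715, and over all genes 2671 in place of 1684 in shPrmt1 cells and 4 in place of 67 between the inhibitors.

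Over all genes, DESeq2 called 377 between the inhibitors, no filter 38, and fits without 1 library 2 to 114. For GSK3368715 against vehicle 1254 became 597 with only the groups compared and 586 to 778 without vehicle replicate 3 or GSK3368715 replicate 1 or 3, for MS023 3625 became 2409 without MS023 replicate 2, and for shPrmt1 1684 became 652 to 1072 without 4 of the 6 libraries. Rescaling to the same total moved the share of higher calls from 51.1% to 61.9% in shPrmt1 cells and from 49.2% to 59.3% with MS023, and to the same upper quartile to 65.9% with MS023. Between the inhibitors 61.2% became 46.8% and 39.1%. Few reads limit the values of Bmp6 in shControl cells, where 20 reads were found in all.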
